A study of Gallus gallus with 10 samples.

Results

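The transcriptional response to exogenous Otx2 that was common to 3 tissues of the chicken embryo was examined: the midbrain-hindbrain portion, the sinus rhomboidalis portion of the trunk, and the posterior area opaca, which is extraembryonic tissue. Read counts of 5 libraries with exogenous Otx2 were compared with those of 5 libraries without it, with tissue as a block, and the members were the genes that passed this test and moved the same way in all 3 tissues. Of the 16915 genes tested, among 25443 in the table, 14 passed, and all 14 were higher with Otx2. One of them is the introduced mouse Otx2 itself, so 13 chicken genes were called at this threshold by edgeR. Among the 13 were TMEM233, GNB3, DRCC1, ARR3, PDC, SOUL, MDGA1, LOC121110043, IL2RB, GUCA1A, C4ORF19 and IMPG1. How many genes passed depended on the tool and setting, with 921 called by DESeq2 in the same design. At least 6 of the 13 encode proteins of photoreceptor cells. The largest levels were those of cone arrestin ARR3 and the transducin subunit GNB3, which reached 154 and 103 TPM (a transcript level scaled for length and library total).

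Wild-type embryos were electroporated from the epiblast side at stages 4 to 5, apart from a doubt on 1 trunk control given below. They were cultured ex ovo to stages 10 to 11. Embryos with exogenous Otx2 received a vector with mouse Otx2 cDNA (pCAGGS-mOtx2, 0.25 µg per µl) together with pCAGGS-EGFP (0.2 µg per µl); pCAGGS is an expression vector that is active in most cell types, so the Otx2 was not directed to a cell type. These embryos gave the libraries OH1 and OH2 (midbrain-hindbrain), OT1 and OT2 (sinus rhomboidalis-equivalent portion) and AO (posterior area opaca), and embryos without exogenous Otx2 gave CH1 and CH2, NewCT1 and CT2 (sinus rhomboidalis), and AC. For CH1, CH2 and AC the labels name pCAGGS-EGFP (0.2 µg per µl), and by the methods of the study control embryos received pCAGGS without an insert in place of the Otx2 vector. Each library was a pool of tissue from 4 embryos. The study speaks of a shared embryo pool, but the labels do not tie libraries of different tissues to the same embryos. The labels of the trunk controls conflict: NewCT1 has a title without electroporation and a treatment entry with EGFP, whereas the entry of CT2 names no electroporation. EGFP was at 1.12 TPM (12 reads) in NewCT1 and at 15328 TPM in CT2. The EGFP levels go with the title of NewCT1, so this control was probably not electroporated. The part of this in the difference between groups was not tested.

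OTX2 is a homeodomain transcription factor that is needed for head development, and in the later retina it is one of the factors that direct precursor cells to become photoreceptors. Photoreceptors of the retina and of the pineal gland detect light through a cascade in which an opsin activates the G protein transducin, transducin activates a phosphodiesterase, and the resulting fall of cyclic GMP closes ion channels. Arrestin, phosducin and the proteins that activate guanylate cyclase end or tune this response. At the stages examined here the embryo has optic vesicles but no differentiated photoreceptors. By the account of the study the forebrain was left out of the midbrain-hindbrain portion. Whether any eye tissue remained in a pool was not tested.

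The total count of a library ranged from 28606038 in NewCT1 to 40806402 in AO. Mouse Otx2, which was counted apart from the chicken gene because its sequence had been added to the reference, was at 97.4 TPM in OH1, 160.3 in OH2, 334 in OT1, 529 in OT2 and 139 in AO, with no read in any of the 5 control libraries. All 5 libraries labelled as having exogenous Otx2 therefore contained it. EGFP did not separate the groups, with 1859 to 9062 TPM in the 5 Otx2 libraries and 1.12 to 15328 TPM in the 5 controls. Chicken OTX2 was at 87.8 and 91.8 TPM in OH and at 80.2 and 63.2 TPM in CH. It was at 4.46 and 5.37 TPM in OT, at 0.0647 and 0.337 TPM in the trunk controls, at 0.0846 TPM in AO and at 0.889 TPM in AC. The chicken gene was thus higher with Otx2 in the brain and trunk. In the area opaca it was lower, but only by 1 library against 1, both below 1 TPM. The chicken gene was not a member (adjusted p = 0.513 by edgeR).

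The 14 genes called were 0.0828% of the genes tested (edgeR's quasi-likelihood test, adjusted p below 0.05). In each of them every Otx2 library was above every control library of its own tissue in all 3 tissues. Without any test, 853 genes (5.04% of all) were higher with no overlap in the 3 tissues and 911 genes (5.39%) were lower. At an unadjusted p below 0.05, 1583 genes were higher and 1371 lower (9.36% and 8.11% of all). No gene was called lower in this fit, with 1371 lower at an unadjusted p below 0.05. The number called depended on the tool: DESeq2 with the same design called 629 genes higher and 292 lower, including all 14, and edgeR's test of the mean of the 3 tissue effects called 206 higher and 44 lower, also including all 14. With 1 library left out at a time, 3 to 14 genes were called, the fewest without OH2 or without CT2, and TMEM233 and GNB3 were called in all 10 of these fits. In pooled tissue, more cells of a type and more RNA per cell cannot be told apart. The p-values measure the spread between these pools together with differences in response between tissues.

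Among the 13 chicken genes, 4 belong to the phototransduction cascade. ARR3, the arrestin of cones, which quenches activated opsin (gene identifier 769109; chromosome 4, positions 1232611 to 1239245 of GRCg7w), was at 16.6 and 31.6 TPM in OH1 and OH2, 73.5 and 154 TPM in OT1 and OT2, and 37.8 TPM in AO. It had no read in any control library. Set against 3 reads over the control group, which a count of 0 still allows, ARR3 was at least 383-fold higher with Otx2 in the brain, 2045-fold in the trunk and 299.5-fold in the area opaca (adjusted p = 0.0184 by edgeR). This limit covers counting error only.

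GNB3, the beta subunit of cone transducin (identifier 427945; chromosome 1, 77393592 to 77405290), was at 36.9 and 55.6 TPM in OH1 and OH2, 65.6 and 103 TPM in OT1 and OT2, and 20.5 TPM in AO. In the controls it was at 1.87 and 2.21 TPM in CH, 1.66 and 1.29 TPM in NewCT1 and CT2, and 0.953 TPM in AC. The lowest Otx2 library was thus above the highest control by a wide margin, and the log2 fold change across tissues was 4.79 (standard error 0.33; adjusted p = 0.00154 by edgeR). GNB3 was the only chicken gene still called when the trunk libraries were left out.

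PDC, phosducin, which binds the beta and gamma subunits of transducin (identifier 429078; chromosome 8, 10263471 to 10267426), was at 3.94 and 8.15 TPM in OH1 and OH2, 8.53 and 26.1 TPM in OT1 and OT2, and 6.03 TPM in AO. Among controls it was detected only in CH1, at 0.0833 TPM from 3 reads. The ratio of Otx2 to control reads in the brain was 96.0 (95% counting interval 32.6 to 468), and PDC was at least 313-fold higher in the trunk and 47.7-fold higher in the area opaca (adjusted p = 0.0184 by edgeR).

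GUCA1A, which encodes the guanylate cyclase activating protein GCAP1 (identifier 374216; chromosome 26, 3190995 to 3195443), was at 0.957 and 2.10 TPM in OH1 and OH2, 9.35 and 13.3 TPM in OT1 and OT2, and 3.69 TPM in AO. It was listed at 0 in both CH libraries and was at 0.853, 0.285 and 0.148 TPM in NewCT1, CT2 and AC. The level of OH1 was close to that of NewCT1, but the groups did not overlap within any tissue (log2 fold change 4.87, standard error 0.60; adjusted p = 0.0300 by edgeR).

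IMPG1, a proteoglycan of the matrix around photoreceptors (identifier 374088; chromosome 3, 79881471 to 79935660), was at 0.530 and 0.904 TPM in OH1 and OH2, 3.09 and 10.8 TPM in OT1 and OT2, and 8.01 TPM in AO. Its controls were listed at 0 except for CH2 at 0.0434 TPM and CT2 at 0.0290 TPM, with 4 reads each. IMPG1 was the member nearest to the threshold (log2 fold change 7.52, standard error 0.99; adjusted p = 0.0452 by edgeR).

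**Figure D1:**
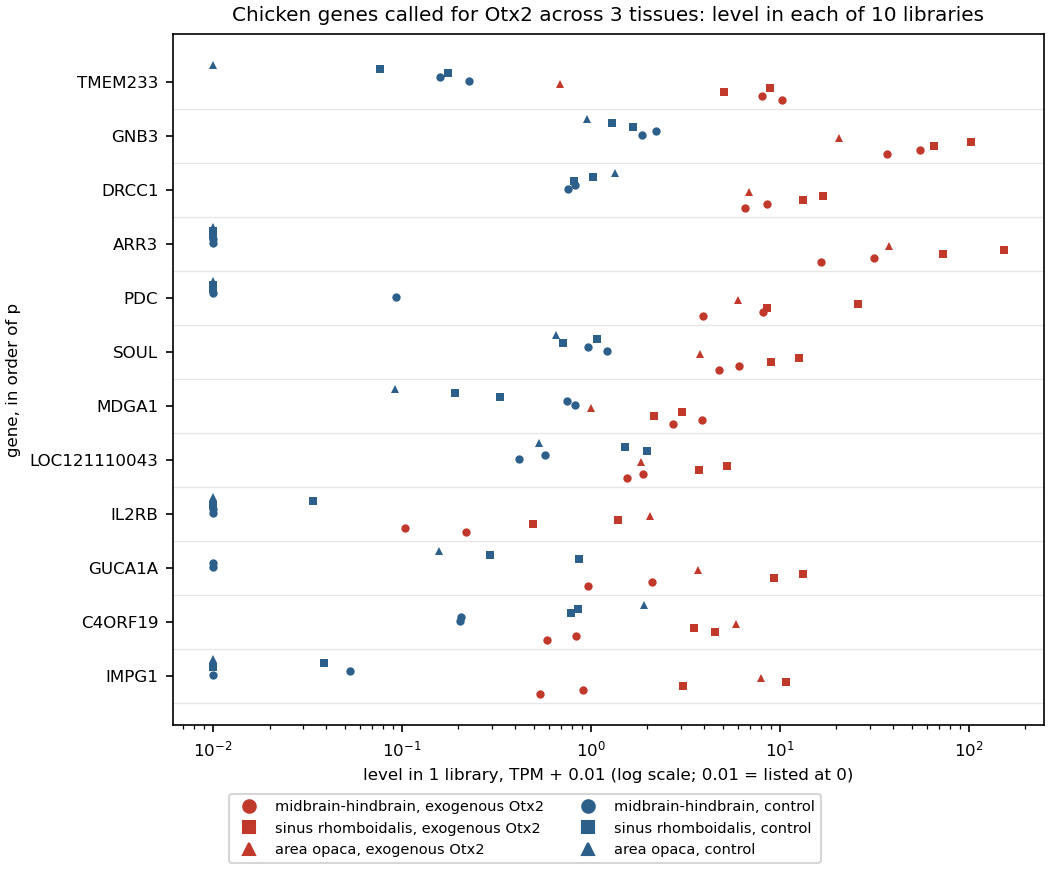
Level of 12 of the 13 chicken genes in each library, in TPM on a log axis with 0.01 added, with 1 point per library. Points in red (exogenous Otx2) lie to the right of points in blue (control) of the same shape (tissue) for every gene drawn, and ARR3 spans 16.6 to 154 TPM with Otx2 against 0 in the controls.

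The remaining 7 members are not on the photoreceptor lists. TMEM233, a small membrane protein with the smallest p of all genes (identifier 101748111; chromosome 15, 9655527 to 9669227), was at 10.3 and 8.02 TPM in OH1 and OH2, 5.05 and 8.86 TPM in OT1 and OT2, and 0.678 TPM in AO. Its controls were at 0.216 and 0.149 TPM in CH, 0.166 and 0.0673 TPM in NewCT1 and CT2, and 0 in AC. Of the Otx2 libraries, AO had by far the lowest level (log2 fold change 5.66, standard error 0.39; adjusted p = 0.00154 by edgeR).

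DRCC1, annotated as down-regulated in colon cancer 1 (identifier 771569; chromosome 4, 82686578 to 82699904), was at 6.57 and 8.58 TPM in OH1 and OH2, 13.4 and 17.0 TPM in OT1 and OT2, and 6.90 TPM in AO, against 0.749 to 1.34 TPM in the 5 controls. SOUL, a heme-binding protein that is known from the chicken retina and pineal gland (identifier 395567; chromosome 5, 58418200 to 58428952), was at 4.76 and 6.10 TPM in OH1 and OH2, 8.99 and 12.6 TPM in OT1 and OT2, and 3.80 TPM in AO, against 0.649 to 1.22 TPM in the controls. Both genes had an even basal level in all control tissues and rose most in the trunk. Their log2 fold changes were 3.36 (standard error 0.31; adjusted p = 0.00940) for DRCC1 and 2.83 (standard error 0.31; adjusted p = 0.0184) for SOUL.

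MDGA1, a cell adhesion protein anchored to the membrane by a lipid (identifier 421431; chromosome 3, 29554081 to 29689480), was at 2.73 and 3.87 TPM in OH1 and OH2, 2.14 and 3.03 TPM in OT1 and OT2, and 0.994 TPM in AO. Its controls were at 0.814 and 0.740 TPM in CH, 0.321 and 0.181 TPM in the trunk and 0.0820 TPM in AC. With and without Otx2 the area opaca had the lowest level, and the Otx2 libraries of brain and trunk overlapped each other (log2 fold change 2.83, standard error 0.33; adjusted p = 0.0238 by edgeR).

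C4ORF19 (identifier 101747284; chromosome 4, 69365082 to 69408656) was at 0.579 and 0.824 TPM in OH1 and OH2, 4.57 and 3.496 TPM in OT1 and OT2, and 5.89 TPM in AO, and at 0.193, 0.195, 0.782, 0.847 and 1.91 TPM in CH1, CH2, NewCT1, CT2 and AC. LOC121110043, an uncharacterized gene, was at 1.55 and 1.88 TPM in OH1 and OH2, 3.75 and 5.27 TPM in OT1 and OT2, and 1.83 TPM in AO, and at 0.410, 0.567, 1.97, 1.52 and 0.521 TPM in the same order of controls. In these genes the control level of one tissue exceeded the Otx2 level of another, and the difference was visible only within tissues. Their log2 fold changes were 1.91 (standard error 0.24; adjusted p = 0.0300) and 1.48 (standard error 0.17; adjusted p = 0.0238), the smallest among the members.

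IL2RB, a chain of the receptors for interleukins 2 and 15 in mammals (identifier 100859707; chromosome 1, 51794279 to 51807865), was the member with the lowest level. It was at 0.208 and 0.0943 TPM in OH1 and OH2, 0.487 and 1.38 TPM in OT1 and OT2, and 2.06 TPM in AO, and had 2 reads in CT2 and none in the other controls (adjusted p = 0.0300 by edgeR). Relative to the limit set by 3 reads it was at least 6.91-fold higher in the brain and 45.5-fold higher in the area opaca, and the ratio of reads in the trunk was 71.2 (95% counting interval 19.3 to 594).

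The size of the response was next compared between tissues, as the difference in mean log2(CPM + 0.5) between Otx2 and control libraries (CPM, counts scaled to the library total). On this scale the difference was largest in the trunk for 9 of the 13 chicken genes and smallest in the brain for 9. The added 0.5 CPM shrinks differences most where levels are low, so the order of tissues depends on level as well as fold. GUCA1A had 44 and 91 reads in OH1 and OH2 against 0 in CH1 and CH2, with a difference of 2.06. In OT1 and OT2 it had 326 and 494 reads against 28 and 13 in NewCT1 and CT2, with a difference of 3.59. The median over the 13 genes was 2.05 in the brain, 3.45 in the trunk and 2.66 in the area opaca. With 0.5 CPM added, TMEM233 and LOC121110043 differed most in the brain, by 3.81 and 1.44. On the same scale IL2RB and IMPG1 differed most in the area opaca, by 3.48 and 5.65. The area opaca value has no replicate.

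**Figure D2:**
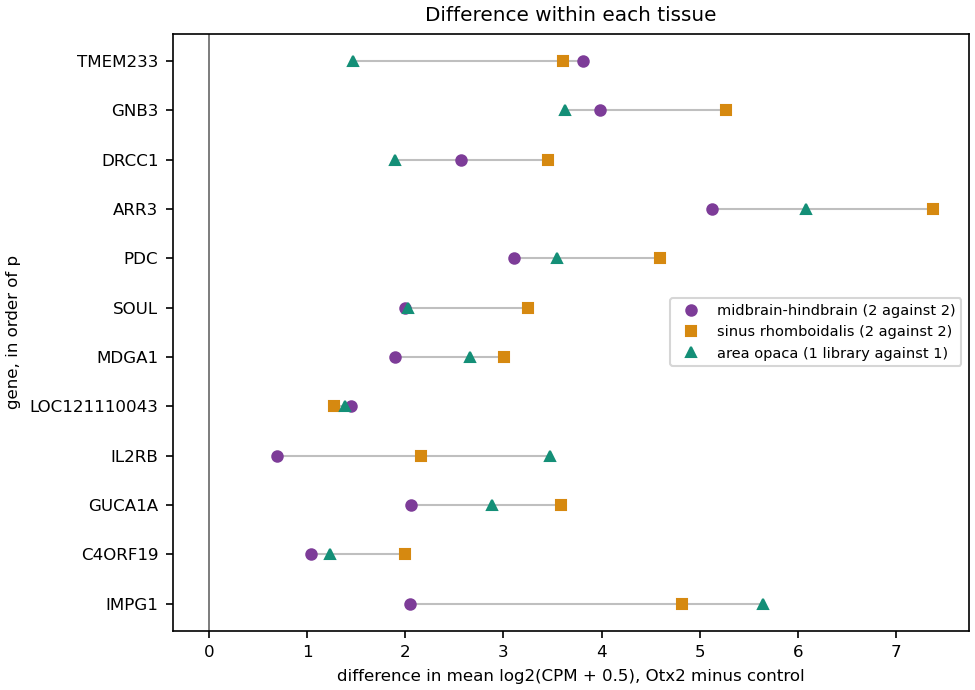
Difference in mean log2(CPM + 0.5), Otx2 minus control, within each tissue for 12 of the 13 chicken genes, with a grey line from the smallest to the largest value. All points are above 0; the smallest is IL2RB in the brain (0.69) and the largest is ARR3 in the trunk (7.37).

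A test of unequal effects in the 3 tissues called 4 genes among all those tested (0.0236%), and none of them was a member. Among the members, GNB3 (0.0122), DRCC1 (0.0155) and SOUL (0.0447) had an unadjusted p below 0.05 in this edgeR test, with adjusted p between 0.291 and 0.404. In the fit with 1 coefficient per group, all 13 genes were called in the trunk, where 1007 genes (5.95%) were called, and GNB3 and DRCC1 were called in the brain, where 5 genes (0.0296%) were called. These libraries are the ones that chose the members, so the calls only describe in which tissue the members passed the test. The number of genes called in the trunk was 15 without NewCT1, 184 without OH2, 185 without OH1, 444 without CT2, 655 without CH2 and 661 without CH1. Without NewCT1, 1 of the 13 members was still called in the trunk, and no member was called in the brain when any 1 brain or trunk library was left out.

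At the threshold, the members just inside were IL2RB, GUCA1A and C4ORF19 (adjusted p = 0.0300 each) and IMPG1 (adjusted p = 0.0452). A group of 12 genes followed with the same adjusted p of 0.0504: TRPM3, IL16, GRIA1, TOPAZ1, YPEL2, CHRNA7, C21orf58, CARNS1, CADNL, PRPH2L, RORBL and INF2. All 12 were higher with no overlap in the 3 tissues, with log2 fold changes from 1.03 for YPEL2 to 4.23 for C21orf58. The group includes PRPH2L, related to the photoreceptor disc protein peripherin, and RORBL, related to the retinal nuclear receptor RORB, as well as the channel subunits TRPM3, GRIA1 and CHRNA7. TRPM3, for example, was at 1.41, 3.48, 1.36, 3.68 and 2.53 TPM in OH1, OH2, OT1, OT2 and AO and at 0.134 to 0.416 TPM in the controls. At an adjusted p below 0.1 there were 58 genes, of which 57 were higher.

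By the counts per transcript, the higher level of GNB3 lay in 1 transcript. The transcript table assigns reads that several transcripts share by estimate, so these values are described without a test. For GNB3, the transcript of 1979 bases that begins at position 77395590 had 1427 and 2086 reads in OH1 and OH2, 1989 and 3311 in OT1 and OT2, and 812 in AO, against 6 to 24 reads in the controls. The transcript of 2351 bases, which spans from position 77393592 and has the same end coordinate, had 0 to 42 reads with Otx2 and 28 to 57 in the controls. In every control library more reads were thus assigned to the longer form, and in every Otx2 library more to the shorter one.

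For C4ORF19, reads in OH1 and OH2 (46 and 62) and in all controls were assigned to a transcript of 3937 bases, and those in OT1, OT2 and AO mainly to one of 3851 bases (266, 221 and 403). For ARR3, IMPG1 and LOC121110043 the split between transcripts differed between libraries of the same group, and it is not described.

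**Figure D3:**
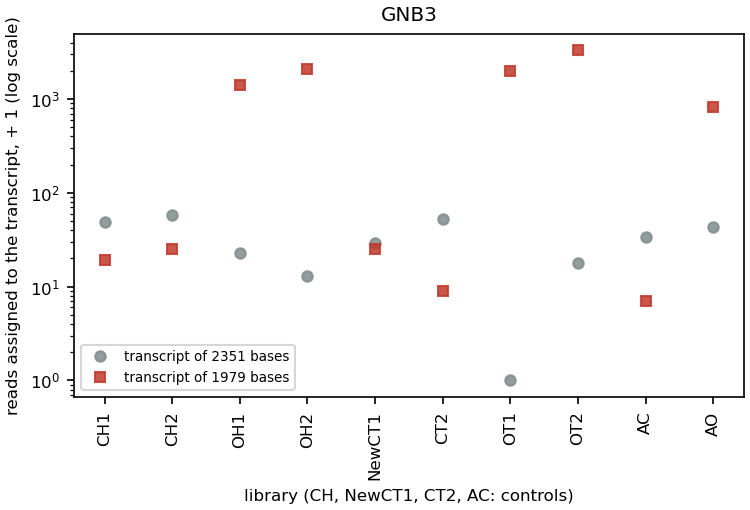
Reads assigned to each annotated transcript of GNB3 in the 10 libraries, with 1 added, on a log axis. The 1979-base transcript has 812 to 3311 reads in OH, OT and AO and 6 to 24 in the controls, whereas the 2351-base transcript has 0 to 42 and 28 to 57.

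The annotated neighbours on each side and the genes that overlap a member were examined, and none of those tested was called. Over all genes tested 0.0828% were called, so a set this small would be likely to hold none in any case. P3H3, which overlaps GNB3, had a log2 fold change of 0.12 (adjusted p = 0.611), FANCM, which overlaps SOUL, one of -0.12 (adjusted p = 0.572), and SVIL, which overlaps LOC121110043, one of -0.08 (adjusted p = 0.802). The 2 genes beside TMEM233, PRKAB1 and CCDC60, had log2 fold changes of -0.12 and -0.47 (adjusted p = 0.472 and 0.781). LOC121110313 beside MDGA1 and C1QTNF6 beside IL2RB were higher without overlap in all 3 tissues, as were 5.04% of all genes. Their log2 fold changes were 2.14 and 1.00, with adjusted p of 0.211 and 0.274 by edgeR. INPPL1, beside ARR3, had 2, 9, 0, 13 and 23 reads in OH1, OH2, OT1, OT2 and AO and none in the controls (adjusted p = 0.243). LOC107052037, which overlaps ARR3, was at 0.205 to 1.30 TPM with Otx2 and 0.0759 to 0.267 TPM without (log2 fold change 1.59, adjusted p = 0.204). Whether counting used the strand is not given in the sources used here, so reads of overlapping genes on opposite strands cannot be told apart.

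Because the members were chosen with all 3 tissues, each tissue was next left out of the fit and the direction in it was read afterwards. Libraries of different tissues may come from the same embryos, so the third tissue may not be independent of the other 2. Without the area opaca, 4 chicken genes were called (TMEM233, GNB3, DRCC1 and ARR3), and all 4 were higher with Otx2 in the area opaca, with a median difference of 2.80 on the log2(CPM + 0.5) scale. Of these, TMEM233 and ARR3 had no read in AC, so they could not have been lower there. Without the trunk, GNB3 alone was called, and it was higher in the trunk by 5.29. Without the brain, no gene was called (2786 at an unadjusted p below 0.05), and the 13 members had adjusted p from 0.0841 to 0.146. Over all genes tested, the sign in the third tissue was the same as in the other 2 for 59.97%, 60.5% and 61.9%.

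A looser limit, an unadjusted p below 0.001 in the fit of 2 tissues, was added after the data had been seen. Of 70 genes higher in the brain and trunk, 65 (92.9%) were higher in the area opaca, compared with 61.7% of all genes with that direction. Of 34 genes higher in the brain and area opaca, 32 (94.1%, against 65.2%) were higher in the trunk. With no overlap there were 28 (82.4%, against 39.1% of all genes with that direction). Of 105 genes higher in the trunk and area opaca, 96 (91.4%, against 64.3%) were higher in the brain, with a median difference of 0.79. A gene without control reads in the third tissue cannot be lower there. ARR3, without a read in any control, was among the higher genes of each comparison. For such genes the direction was fixed in advance, and the shares over all genes do not allow for this.

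Few genes were lower at this limit. Of 18 genes lower in the trunk and area opaca at this limit, 8 (44.4%, against 59.2% of all genes lower there) were lower in the brain, and the median difference was 0.04. A single gene, LOC420770, was lower in the brain and area opaca, and it was also lower in the trunk without overlap (difference of -3.89). Of all genes lower in the brain and area opaca, 33.6% were lower in the trunk without overlap. No gene was lower in the brain and trunk.

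**Figure D4:**
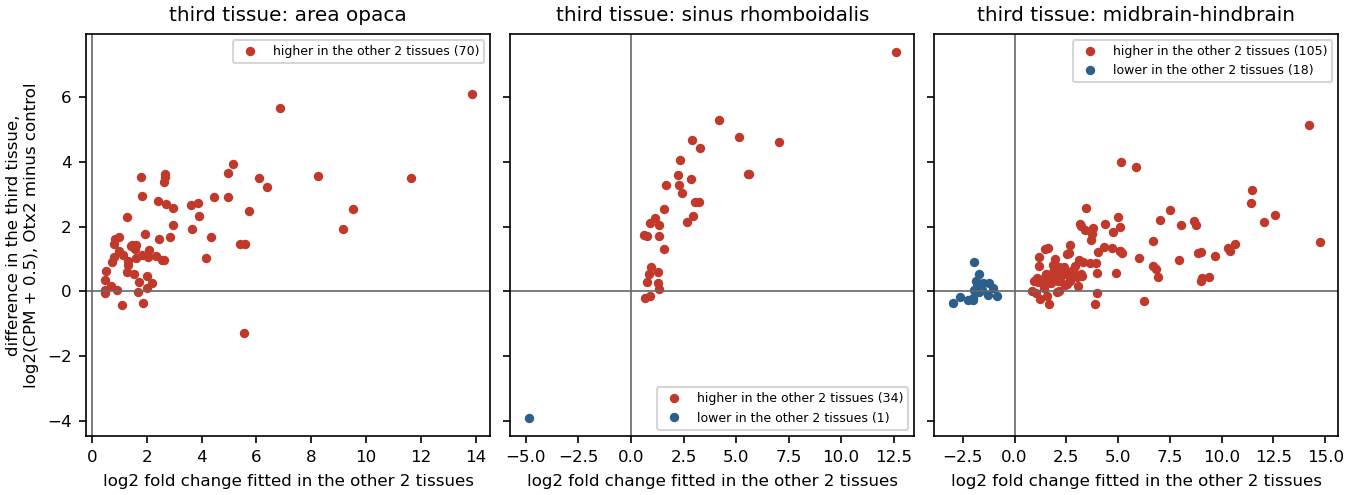
Genes with an unadjusted p below 0.001 in the fit of 2 tissues, with the fitted log2 fold change on the horizontal axis and the difference in log2(CPM + 0.5) in the tissue that was left out on the vertical axis, for area opaca (left), sinus rhomboidalis (middle) and midbrain-hindbrain (right). Red points, higher in the 2 fitted tissues, lie mostly above 0 in each panel (65 of 70, 32 of 34 and 96 of 105), and the 18 blue points on the right lie on both sides of 0.

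Duplicate libraries were also compared with each other. They are among the libraries that chose the members, and genes of the same library are not replicates, so the comparison is descriptive only. OH2 had 1.63 times as much mouse Otx2 as OH1, and OT2 had 1.47 times as much as OT1, in scaled CPM. Of the 13 chicken genes, 11 were higher in OH2 than in OH1 and 12 were higher in OT2 than in OT1, with 10 higher in both. Over all genes tested the shares were 50.3%, 46.9% and 25.5%. For the 43 chicken genes higher with an adjusted p from 0.05 to 0.1 by edgeR they were 81.4%, 74.4% and 67.4%. ARR3 was 1.88 times higher in OH2 and 1.94 times higher in OT2, PDC 2.04 and 2.83 times, and IMPG1 1.68 and 2.97 times. The exceptions were TMEM233 and IL2RB, which were lower in OH2 than in OH1 (ratios 0.770 and 0.457), and C4ORF19, which was lower in OT2 than in OT1 (ratio 0.714). EGFP was also higher in OH2 and OT2, by 2.38 and 1.42 times, and with 2 pairs of libraries the part of the Otx2 amount in this order was not tested.

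Of the 16915 genes tested, 63 chicken genes, called genes included, were at least 2-fold higher in each of the 3 tissues with no overlap. No gene was at least 2-fold lower in each. Of the 13 members, 12 were among the 63, and the exception was IL2RB, with a difference of 0.69 in the brain. Members and the 63 were both chosen for no overlap in the same libraries, so this count follows largely from the choice. In addition to the genes above, the 63 included RP1L1, a protein of the photoreceptor axoneme (0.799 to 4.74 TPM with Otx2 and 0 to 0.0892 TPM without), the potassium channel KCNJ13, the eye globin GBE and the phosphatase PPEF2. These were chosen as examples after their values had been seen, and none of them was called. All 63 also did not overlap when levels were judged in TPM. TPM rescales the same reads that chose the 63, so this was largely fixed by the choice. Of the 853 genes higher without overlap in scaled CPM, 720 were so in TPM too. Over all genes tested, 5.43% were higher without overlap in TPM.

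The phototransduction list held 19 genes that were tested, of 33 listed. Of these, 4 were called higher (the members ARR3, GNB3, PDC and GUCA1A), beside 0.0828% of all genes called. None was called lower, which held for all genes tested. Without overlap in the 3 tissues, 9 were higher, beside 5.04% of all genes. All 19 log2 fold changes were above 0, with a median of 1.59 beside 0.02 over all genes tested. The list was written with earlier results of these data known, so its direction is not independent evidence. In this list and the next, genes with few or no control reads passed the low-count filter through their Otx2 libraries. For such genes, ARR3 and PDE6C among them, the positive sign was fixed by the filter.

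The 5 that were higher without overlap but not called were GNGT2, PDE6C, PDE6H, CNGA3 and GUCY2D. GNGT2, the gamma subunit of cone transducin, was at 3.80 and 5.32 TPM in OH1 and OH2, 10.4 and 23.2 TPM in OT1 and OT2 and 4.28 TPM in AO, against 0 to 0.515 TPM in the controls (adjusted p = 0.0785 by edgeR). PDE6H, the inhibitory subunit of the cone phosphodiesterase, was at 12.6 and 24.5 TPM in OH, 32.6 and 60.2 TPM in OT and 19.9 TPM in AO, and at 6.29 and 6.09 TPM in CH and 0.629 to 1.62 TPM in the other controls (adjusted p = 0.165). PDE6C, its catalytic subunit, was at 0.322 to 2.67 TPM with Otx2 and listed at 0 in all controls (adjusted p = 0.117).

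GNAT2, the alpha subunit of cone transducin, departed from this pattern. It was at 2.79 and 5.73 TPM in OH and 9.23 and 12.7 TPM in OT, against 0 to 0.211 TPM in the brain and trunk controls, but it was listed at 0 in AO and at 0.584 TPM in AC. SAG, for rod arrestin, was at 0.447 to 0.911 TPM with Otx2 and at 0.359 to 1.01 TPM in the controls, and its ranges overlapped (adjusted p = 0.720 by edgeR). The genes for the cone opsins were not tested.

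Of 28 tested genes for photoreceptor regulators and structure, 2 were called higher, IMPG1 among them, beside 0.0828% of all genes called. None was called lower, which held for all genes tested, and 14 were higher without overlap, beside 5.04% of all genes. Of the 28 log2 fold changes, 24 were above 0 and 4 below, with a median of 0.65. CABP4, a calcium-binding protein of the photoreceptor synapse, was at 1.13 to 3.27 TPM with Otx2 and 0.215 to 0.537 TPM without (adjusted p = 0.0755 by edgeR). TPH1 and AANAT, enzymes of serotonin and melatonin synthesis in the pineal gland, were at 7.76 to 33.1 and 5.51 to 13.5 TPM with Otx2, and at 1.99 to 5.00 and 0 to 1.68 TPM without (adjusted p = 0.0755 and 0.165). NR2E3, a nuclear receptor of photoreceptors, was at 2.43 to 14.0 TPM with Otx2 and 0 to 1.01 TPM without (adjusted p = 0.185). For these 4 genes, picked after their values had been seen, all 5 Otx2 libraries were above all 5 controls in TPM. This held for 207 of all genes tested (1.22%).

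Among regulators that did not separate, OTX5, the chicken relative of the photoreceptor factor CRX, was at 1.83 to 3.46 TPM with Otx2 and 0.901 to 3.303 TPM without (adjusted p = 0.306). RAX, a factor of the eye field, was at 0.185 to 7.91 TPM with Otx2 and 0 to 12.7 TPM without (adjusted p = 0.854). The summed level of the 7 retina and lens markers in the table was 11.7 to 26.7 TPM with Otx2 and 3.81 to 28.8 TPM in the controls. Of the 6 tested, 2 were higher without overlap, beside 5.04% of all genes.

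**Figure D5:**
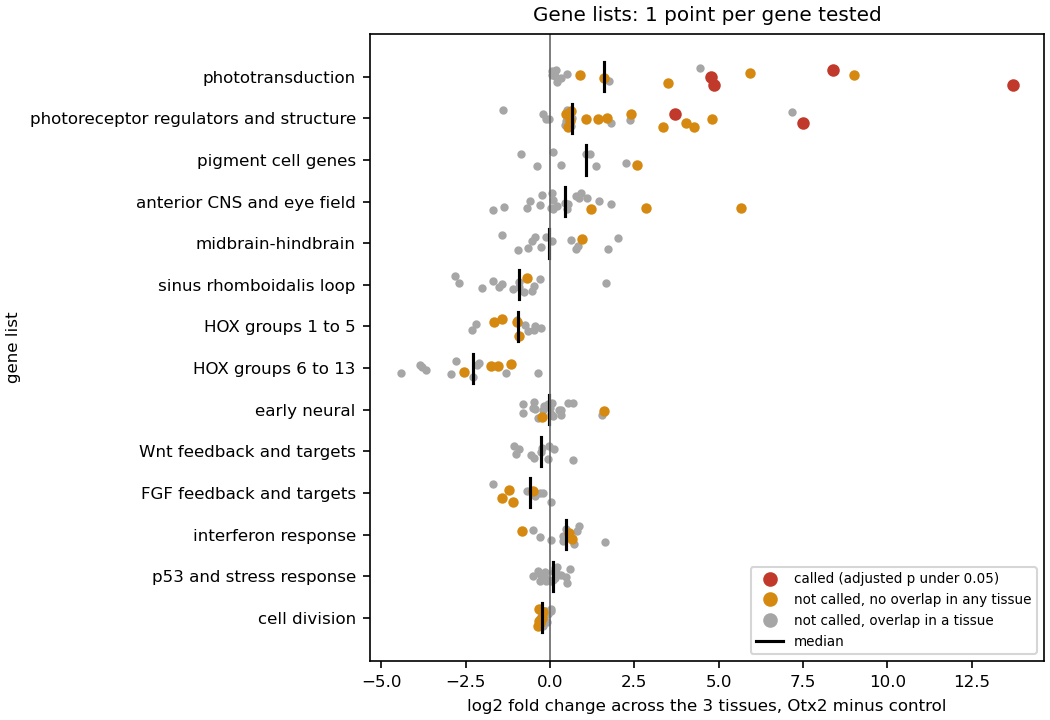
Log2 fold change across the 3 tissues (Otx2 minus control) of every tested gene of the 14 gene lists, 1 point per gene, with a black bar at the median of each list. Called genes (red) are found in the 2 photoreceptor lists alone, and their medians are 1.59 and 0.65; genes drawn in orange did not overlap in any tissue but were not called.

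No gene of the other 12 lists was called in either direction, beside 0.0828% of all genes called. The counts without overlap in these lists stand beside 5.04% of all genes higher and 5.39% lower. Of 23 genes of the anterior nervous system and eye field, DMBX1, BARHL2 and LHX1 were higher without overlap. DMBX1, a homeobox gene of the midbrain, was at 55.8 and 59.7 TPM in OH and 20.9 and 18.6 TPM in CH, and at 21.6 and 55.9 TPM in OT and 15.9 TPM in AO, while its trunk and area opaca controls were listed at 0 (adjusted p = 0.207 by edgeR). Of 9 pigment cell genes, only RPE65, an enzyme of the visual cycle, was higher without overlap (1.41 to 14.1 TPM with Otx2 and 0.331 to 2.17 TPM without; adjusted p = 0.177). The lists for midbrain-hindbrain patterning and early neural genes had medians of -0.03 each, with 1 gene each higher without overlap and, among the early neural genes, 1 lower. The 13 interferon response genes had a median of 0.49 with 2 higher and 1 lower without overlap, and the 19 genes of the p53 and stress response (median 0.10) and the 11 of Wnt feedback (median -0.27) had none. The 15 sinus rhomboidalis genes had a median of -0.92, with -2.75 in the trunk, -0.52 in the area opaca and 0.05 in the brain; 1 was lower without overlap, and none was in TPM.

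HOX genes had log2 fold changes below 0 throughout the lists, without a call. All 13 tested genes of HOX groups 1 to 5 and all 15 of groups 6 to 13 were below 0, with medians of -0.96 and -2.27. Most of this difference was in the trunk, where the medians were -1.74 and -3.29. They were -0.16 and 0 in the brain, and -0.41 and -0.50 in the area opaca. Of the 13, 4 were lower without overlap in all 3 tissues, beside 5.39% of all genes, and of these only HOXB4 was when judged in TPM. Of the 15, 4 were lower without overlap, and 3 of these (HOXA7, HOXB7 and HOXB8) were also in TPM. HOXB4, a homeobox gene of the HOX B cluster, was at 11.8 and 11.2 TPM in OH, 34.5 and 61.8 TPM in OT and 24.4 TPM in AO, and at 14.5 and 17.1 TPM in CH, 122 and 101 TPM in the trunk controls and 52.1 TPM in AC (log2 fold change -0.93, standard error 0.17; adjusted p = 0.117 by edgeR).

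Of 18 cell division genes, 16 were below 0 with a median log2 fold change of -0.22, and 7 were lower without overlap beside 5.39% of all genes; with levels in TPM, 6 were, 3 of them the same genes. PCNA, the sliding clamp of DNA replication, was at 667 and 646 TPM in OH, 483 and 585 TPM in OT and 396 TPM in AO, and at 760 and 749 TPM in CH, 783 and 653 TPM in the trunk controls and 509 TPM in AC (log2 fold change -0.35, standard error 0.08; adjusted p = 0.165 by edgeR). Of 10 FGF feedback genes, 4 were lower without overlap, of which 3 also in TPM. SPRY2, an inhibitor of FGF signalling, was at 21.1 and 19.6 TPM in OH and 28.8 and 29.5 TPM in CH, at 16.6 and 8.29 TPM in OT and 105.8 and 79.9 TPM in the trunk controls, and at 5.44 TPM in AO and 6.79 TPM in AC (adjusted p = 0.211).

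Genes lower without overlap were ranked by p among those with an assigned symbol and a control mean of at least 1 TPM. The first 10 were CIR1, HOXB4, C1D, STEEP1, DNAJC9, RAE1, MAK16, POLE3, MIS18A and METAP1. None of these 10 passed the test (adjusted p from 0.0884 to 0.141 by edgeR). DESeq2 called all 10, and the mean of the 3 tissue effects called 4 of them (HOXB4, RAE1, MAK16 and METAP1). HOXB4 and RAE1 had log2 fold changes of -0.93 and -0.50, and the other 8 lay between -0.44 and -0.34. CIR1, a corepressor that interacts with RBPJ, was at 48.0 and 44.1 TPM in OH, 40.7 and 44.2 TPM in OT and 31.0 TPM in AO, and at 53.4 and 61.6, 60.5 and 55.0, and 39.1 TPM in the controls of the same tissues. POLE3, a subunit of DNA polymerase epsilon, was at 68.4 to 113 TPM with Otx2 and 80.8 to 141 TPM without. Over all 911 genes lower without overlap the median log2 fold change was -0.28, and their median control level was 45.1 TPM, compared with 0.88 and 2.72 TPM for the genes higher without overlap. In TPM, 642 genes were lower and 919 higher without overlap, and 517 and 720 of these were the same as in scaled CPM.

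Markers of other cell types were summed per library. Of the 12 marker lists, none held a called gene. Over all genes 0.0828% were called, a share at which lists this short would seldom hold one. The 9 heart markers summed to 1678 and 1568 TPM in OT and 207 and 205 TPM in the trunk controls. They summed to 159.7 TPM in AO and 192 TPM in AC, and to 2356 and 4056 TPM in OH against 559 and 3714 TPM in CH. Of the 9, 1 was higher without overlap, beside 5.04% of all genes. Blood markers summed to 176 to 25258 TPM with Otx2 and 1153 to 38062 TPM without, and the 8 sinus rhomboidalis markers to 352 and 103 TPM in OT against 1409 and 1270 TPM in its controls, where they define the tissue. Other lists also differed in the trunk: the area opaca and yolk sac markers summed to 14923 and 9747 TPM in OT against 2512 and 6661 TPM in NewCT1 and CT2, endoderm markers to 5010 and 4949 against 1128 and 2444 TPM, and notochord markers to 156 and 139 against 457 and 372 TPM. Some lists share a gene: TTR is in the yolk sac and endoderm lists, and TBXT in the sinus rhomboidalis and notochord lists. FOXA2 is in the endoderm and notochord lists, so these sums are not independent. By the account of the study, the notochord developed normally with exogenous Otx2. Across tissues, no notochord marker was lower at an unadjusted p below 0.05 by edgeR, and 1 was higher. In the brain, blood markers summed to 484 and 176 TPM in OH against 1153 and 1284 TPM in CH. The part of these markers in the values of the members was not tested.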

How the data were processed

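Poly-A RNA was sequenced in 10 libraries, each from a pool of 4 embryos. The authors mapped the reads to the chicken assembly GRCg7w with mouse Otx2 and EGFP added and quantified transcripts with StringTie; aligner, versions and strand setting are not given in the sources used here. The deposited read counts are whole numbers without normalization, and the TPM values were scaled by the authors for transcript length and library total. Both were used as deposited, and 20 FPKM columns were not used. Of the gene identifiers, 23112 were matched to the GRCg7b gene table for chromosome numbers; starts and ends are those of GRCg7w.

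Counts were analysed in R 4.3.3 with edgeR 4.0.16 (TMM, default low-count filter, quasi-likelihood test, design tissue plus Otx2, 6 residual degrees of freedom) and Benjamini-Hochberg adjustment over 16915 genes at 0.05. The filter removed 8528 genes. Unequal effects, brain and trunk were tested with 1 coefficient per group (4 residual degrees of freedom), in which the area opaca libraries are assumed to vary like the others. Alternatives used DESeq2 1.42.0 and limma 3.58.1 (log2(TPM + 1)), other filters and samples. The script was tested on simulated data. Figures were made in Python 3.11.15 with matplotlib 3.10.9.

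Named genes were the called genes with a mean of at least 1 TPM and an assigned symbol and those of the first 4 lists. Mouse Otx2, EGFP and chicken OTX2 were named as checks. Where fewer than 10 were called in a direction, the 10 separated genes with the smallest p were added, with the same limits on level and symbol. IL2RB and LOC121110043 fall outside this rule and are named because they are members. Other genes of the lists, neighbours and genes next to the threshold were named after their values had been seen. Members and lists were chosen with earlier results of these data known. Promoter and protein sequences and a search for promoter motifs were not used here. Results on 1 member and a few other genes are not reported here.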

Additional observations from a re-analysis of the deposited data

Results flagged for a closer look

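The effect of Otx2 differed between the 3 tissues for 4 genes by the test of unequal effects (adjusted p = 0.0335 for each by edgeR's quasi-likelihood test), and none of them was a member. Among them, LOC423474, an LBH-like gene, was higher in brain and trunk (differences of 0.79 and 2.62 in log2(CPM + 0.5)) and lower in area opaca (-3.91). TMEM109 was higher in brain (2.60) and lower in trunk and area opaca (-0.20 and -1.89), and PDE10A was lower in trunk (-1.26) and higher in brain and area opaca (0.34 and 1.53). The area opaca values rest on 1 library per group. The number of genes called unequal was 0 without OH1, OH2, NewCT1 or CT2 and 113 without OT1.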

How the results depend on the processing

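All 14 called genes kept a positive fold change under every alternative run, but their number depended on the setting. Against 14 genes, DESeq2 called 921 (629 higher and 292 lower; 762 without overlap in all 3 tissues, 20 of the photoreceptor lists against 6), RLE size factors 28, no filter on low counts 34, limma on log2(TPM + 1) 37 (all 37 without overlap; 9 of the photoreceptor lists), the mean of the 3 tissue effects 250 (206 higher and 44 lower; 192 without overlap, 171 higher and 21 lower; 16 of the photoreceptor lists), and a test against a 1.5-fold change 11. Without the brain libraries 0 were called (2786 at an unadjusted p below 0.05) and 0 of the photoreceptor lists, without the trunk 1 and 1, and without the area opaca 5 and 2. Leaving out 1 library at a time gave 3 to 14 called genes, 3 to 14 without overlap, and 1 to 5 of the photoreceptor lists. The cause of these changes was not tested. Deviations of same-numbered libraries were correlated at -0.02 in the brain and -0.23 in the trunk. These values gave no sign of pairing by number, but 1 value per tissue cannot exclude it. With the replicate number as a block 2 genes were called (GNB3 and TMEM233, 1 of the photoreceptor lists). With crossed numbers in the trunk, chosen after seeing the data, the counts were 2 and 1.

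Genes called in the brain numbered 5, against 52 by DESeq2 and 0 to 13 with 1 library left out, and in the trunk 1007, against 2554 and 15 to 893. Unequal effects were called for 4 genes, against 9 without the filter, 33 with brain and trunk only, 845 by DESeq2's likelihood ratio test and 0 to 113 with 1 library left out. Chicken OTX2 turned to -0.15 (log2 fold change) without the trunk libraries. The area opaca, with 1 library per group, limits all statements on it. The search for promoter motifs and its alternative were not run.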
